A study of Mus musculus with 13 samples.

Results

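Endothelial marker genes are genes that the cells lining blood vessels use to sense growth factors, to hold to each other and to exchange material with blood. The description covers the methylation sites that the authors' deposited table of liver methylation assigns to any of 10 such genes by an exact match of the symbol: Cdh5, Vwf, Kdr, Flt1, Pecam1, Tek, Tie1, Eng, Stab1 and Stab2. It found 26 sites at 9 of the 10 genes, out of 23904 listed sites. Tie1 had no row in the table used here. The rule for taking sites uses the symbol and no methylation value, although the genes were chosen with earlier results of these data known, and each of the 26 sites is in the table because it had passed the authors' limits.

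Liver DNA came from 13 mice, 7 fed a low fat/low sucrose diet and 6 fed a high fat/high sucrose diet. The labels give the diet and the tissue, and no strain, sex, age or time on diet. Sample titles begin with G1 (4 and 3 mice of the respective diets) or G2 (3 and 3), a mark the labels do not explain and whose part in the values was not tested. DNA was captured with probes, treated with bisulfite, which converts unmethylated cytosine and leaves methylated cytosine, and sequenced, and methylation at a position is the share of its reads left unconverted. The table gives an average percent methylation for each diet, a difference in percentage points (that of high fat/high sucrose less that of low fat/low sucrose), a p-value and a q-value, which is a p-value adjusted over sites. Values per mouse and read depth were not analysed here, so no spread between mice or interval can be given. Every listed site had a q of at most 0.01 and an absolute difference of at least 5 points, and the other cytosines of these genes were not analysed here. Positions are in the mouse build mm9, and a distance is counted from the start of the transcript that the table names, negative when upstream.

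In the liver, endothelial cells line the large vessels and, as sinusoidal endothelial cells, the fenestrated capillaries between plates of hepatocytes. Vascular endothelial growth factor acts on them through the receptors encoded by Kdr and Flt1, and angiopoietins act through the receptor encoded by Tek, with Tie1 as its partner. Cdh5 and Pecam1 encode proteins of the contacts between endothelial cells, Vwf a clotting protein that these cells store and release, Eng a co-receptor for bone morphogenetic proteins, and Stab1 and Stab2 scavenger receptors typical of sinusoids. DNA methylation at gene starts and at distal regulatory regions is known to differ between cell types. In whole liver, a different share of endothelial cells and a different methylation within cells cannot be told apart. The table holds no expression values, so the names of the genes as endothelial markers were not checked on these livers.

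Across the marker genes, rises and falls were equal in number. Of the 26 sites, 13 (50%) were listed higher in high fat/high sucrose, against 57.6% of all listed sites, and 13 were listed lower, against 42.4%. The listed rises ran from 6.41 to 22.4 points with a median of 13.1, and the listed falls from -10.8 to -21.8 points with a median of -18.6, in the authors' deposited table. Over all listed sites the median rise was 11.7 and the median fall -11.6 points in the authors' deposited table. By gene, every listed site of Vwf (4), Pecam1 (2) and Stab1 (1) was higher, and those of Eng (1) and Stab2 (1) were lower. At both Cdh5 and Tek 4 of 5 were lower, and Flt1 and Kdr were split. Some sites are close neighbours and not independent, and the 26 sites formed 20 clusters when sites within 1000 bp were joined. Of these, 10 (50%) were higher by their site of smallest p, against 55.6% of all listed sites so joined. Stab1, Eng and Stab2 had 1 site each and Pecam1 1 cluster, so their single direction does not show an uneven spread over genes. The sites of Cdh5 formed 5 clusters, and those of Vwf and of Tek 3 each. Whether direction depends on the gene was not tested.

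**Figure D1:**
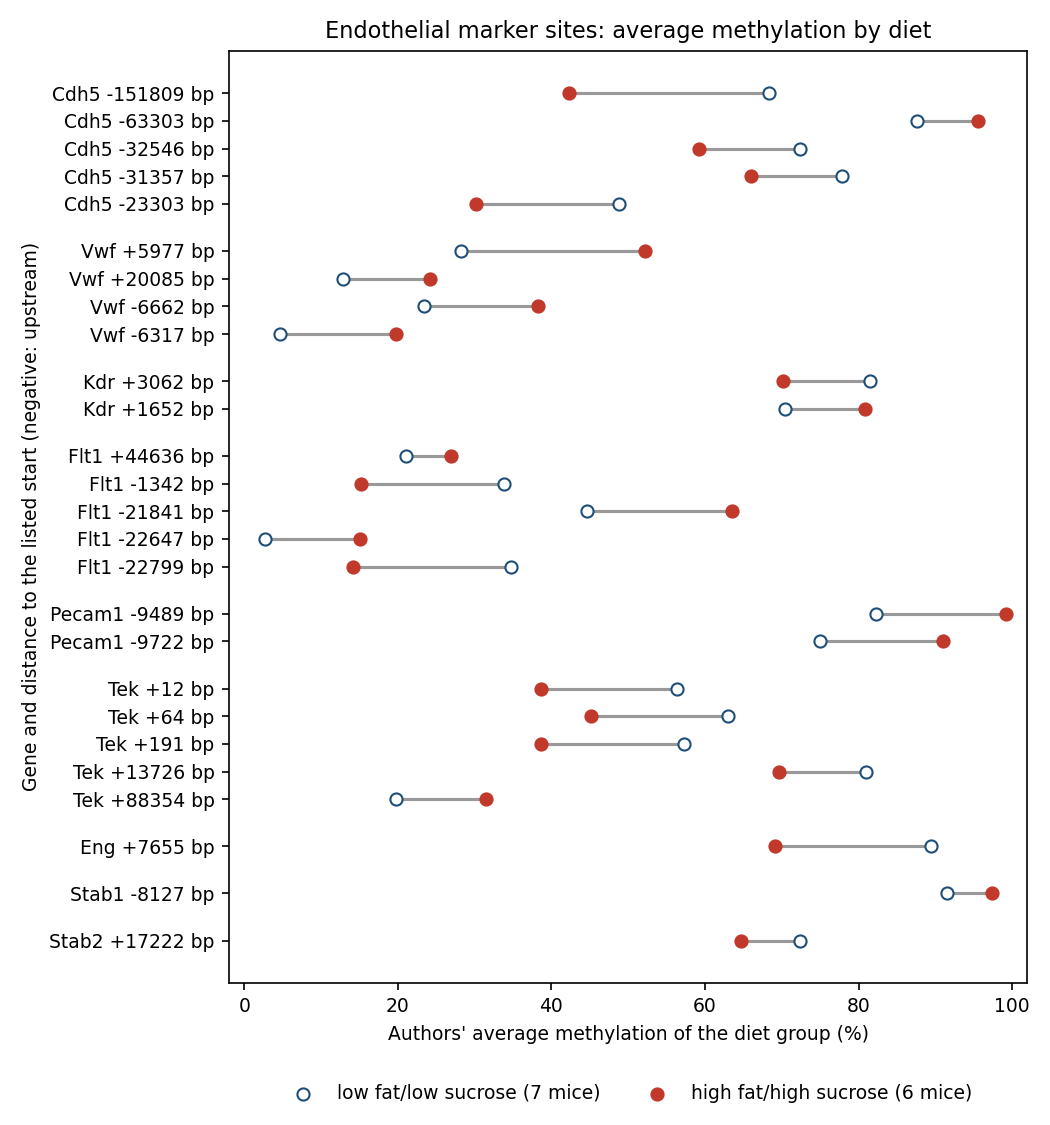
Average methylation (%, horizontal axis) of the 26 listed sites by gene and distance to the listed start in bp (vertical axis), with open circles for low fat/low sucrose (7 mice), filled circles for high fat/high sucrose (6 mice) and a line joining the 2 averages of a site; no error is shown because values per mouse were not analysed. The 4 Vwf sites lie to the right under high fat/high sucrose, and the 3 Tek sites at +12, +64 and +191 bp lie to the left.

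Tek, the angiopoietin receptor gene also called Tie2, was the only one of the 10 genes with listed sites in its promoter, and all 3 were lower in high fat/high sucrose. They lie on chromosome 4, are flagged as promoter and exon, lie within 179 bp of each other, and carry no flag for a CpG island or an island shore, the flank of an island. At 94406001, 12 bp past the start, methylation averaged 56.4% with low fat/low sucrose feeding, against 38.6% with high fat/high sucrose, and the difference was listed at -18.8 points (q = 0.00801) in the authors' deposited table. At 94406053, 64 bp past the start, the averages were 63.0% and 45.2%, with -20.3 points listed (q = 9.24e-05) in the authors' deposited table. At 94406180, 191 bp past the start, they were 57.3% and 38.7%, with -20.2 points listed (q = 0.00718) in the authors' deposited table. The start of Tek was therefore near the middle of the methylation range under both diets, and the 3 sites differed by similar amounts. Of all listed promoter sites 65.2% were higher, so the Tek promoter sites had the less frequent direction. The 3 sites are 1 cluster and count as 1 observation rather than 3.

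A window of 300 bases around the start of Tek held few CpG, the base pair steps at which most mouse DNA methylation occurs. The promoters of Tek and of Flt1 are printed because the table has sites at the start of the first and in the island shore of the second, and because they differ in CpG content. Both are RefSeq windows of GRCm38.p6, another build than that of the sites, from 250 bases before the start to 50 after it, written 5′ to 3′ on the gene's strand, with each CpG in capitals. Tek is chr4:94739039-94739338 (plus strand) and Flt1 is chr5:147725962-147726261 (minus strand).
Tek: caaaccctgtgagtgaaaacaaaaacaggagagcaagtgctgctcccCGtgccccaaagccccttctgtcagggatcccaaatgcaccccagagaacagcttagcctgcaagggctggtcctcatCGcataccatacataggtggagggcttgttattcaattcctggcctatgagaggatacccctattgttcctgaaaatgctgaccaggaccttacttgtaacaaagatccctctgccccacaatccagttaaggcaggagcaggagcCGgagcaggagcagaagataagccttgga
Flt1: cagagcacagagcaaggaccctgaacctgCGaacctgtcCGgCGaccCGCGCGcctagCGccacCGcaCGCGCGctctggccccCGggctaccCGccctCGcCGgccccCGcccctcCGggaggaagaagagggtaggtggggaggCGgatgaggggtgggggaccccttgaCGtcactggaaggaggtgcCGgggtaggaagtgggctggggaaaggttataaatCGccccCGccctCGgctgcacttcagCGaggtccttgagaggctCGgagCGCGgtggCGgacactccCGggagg
The Tek window holds 3 CpG, at bases -203, -125 and 22 counted from the start, with the first base of the transcript as 1 and no base 0, and 68.6% of the 32851 windows in the RefSeq table hold more. The Flt1 window holds 29 CpG, and 11.7% of windows hold more. Among the members, 7 had a window, and the others held 19 CpG (Kdr), 7 (Tie1), 6 (Eng), 7 (Stab1) and 4 (Stab2), against a median of 7 over all windows. GGAA, the core that ETS factors of endothelial gene control bind, occurs on either strand 2 times in the Tek window and 4 times in that of Flt1. At least 1 GGAA on either strand was found in 96.0% of all windows, so its presence separates no promoter here. If the start is the same in both builds, the listed sites 64 and 191 bp past the Tek start lie outside the window. The same holds for the Flt1 site 1342 bp upstream. Which CpG of the window, if any, is a listed site was not tested, since positions in 2 builds are not compared.

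Beyond its start, Tek had 2 intronic sites with opposite directions. The site at 94419715, 13726 bp past the start, averaged 81.0% with low fat/low sucrose feeding, against 69.6% with high fat/high sucrose, and the difference was listed at -13.8 points (q = 0.00283) in the authors' deposited table. The site at 94494343, 88354 bp past the start, averaged 19.8% and 31.5%, with 15.9 points listed (q = 0.00605) in the authors' deposited table. The lower direction of the Tek start thus held for the nearer intronic site and not for the farther one.

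Flt1 encodes VEGF receptor 1, which binds VEGF tightly and, as a soluble form, limits its action. Its 5 sites on chromosome 5 had 3 rises and 2 falls. The site nearest the start, at 148538905 in an island shore 1342 bp upstream, averaged 33.9% with low fat/low sucrose feeding, against 15.1% with high fat/high sucrose, and the difference was listed at -19.8 points (q = 0.00418) in the authors' deposited table. The single site inside the gene, in an intron at 148492929 and 44636 bp past the start, averaged 21.04% and 27.0%, with 7.40 points listed (q = 0.00692) in the authors' deposited table. The near-promoter site was thus lower and the intronic site higher, the latter by little more than the limit of the table.

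A group of 3 sites farther upstream of Flt1, with no gene feature, did not move as a block. At 148559404, 21841 bp upstream, the averages were 44.6% with low fat/low sucrose feeding, against 63.5% with high fat/high sucrose, and the difference was listed at 18.6 points (q = 0.00101) in the authors' deposited table. At 148560210, 22647 bp upstream, they were 2.68% and 15.1%, with 12.9 points listed (q = 0.000197) in the authors' deposited table. At 148560362, 22799 bp upstream, they were 34.7% and 14.2%, with -18.6 points listed (q = 0.00162) in the authors' deposited table. The last 2 sites lie 152 bp apart and were listed in opposite directions, so that their averages were 2.68% and 34.7% under low fat/low sucrose and nearly equal under high fat/high sucrose. Among 645 pairs of neighbouring listed sites over 100 and up to 200 bp apart anywhere in the genome, 113 (17.5%) were opposite.

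Kdr encodes VEGF receptor 2, the main signalling receptor for VEGF on endothelial cells. Its 2 sites lie in introns on chromosome 5, 1410 bp apart, and moved in opposite directions. At 76372802, in an island shore 1652 bp past the start, methylation averaged 70.4% with low fat/low sucrose feeding, against 80.8% with high fat/high sucrose, and the difference was listed at 11.2 points (q = 0.00471) in the authors' deposited table. At 76371392, 3062 bp past the start, it averaged 81.5% and 70.1%, with -14.7 points listed (q = 0.000273) in the authors' deposited table. Both sites were mostly methylated under both diets, and their mean over the 2 sites was 75.9% with low fat/low sucrose feeding, against 75.5% with high fat/high sucrose, per the authors' deposited table.

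Eng encodes endoglin, the co-receptor that presents the circulating ligand BMP9 to its receptor on endothelium. Its 1 site had the largest listed fall of the 26, whereas by the difference of the averages (-20.3 points) it came after the Cdh5 site at -151809 bp (-26.1) and the Flt1 site at -22799 bp (-20.5). It lies in an intron on chromosome 2 at 32509768, 7655 bp past the start, and averaged 89.4% with low fat/low sucrose feeding, against 69.1% with high fat/high sucrose, and the difference was listed at -21.8 points (q = 0.000251) in the authors' deposited table. The share of all listed sites with a larger absolute difference was 3.60%, for a site that is the extreme fall of 26.

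Cdh5 encodes VE-cadherin, the adhesion protein of endothelial junctions. Its 5 sites on chromosome 8 all lie upstream of the start with no gene feature, the nearest at 23303 bp and the farthest at 151809 bp. The nearest, at 106602222, averaged 48.7% with low fat/low sucrose feeding, against 30.2% with high fat/high sucrose, and the difference was listed at -18.1 points (q = 3.51e-05), the smallest q of the 26, in the authors' deposited table. The sites at 106594168 and 106592979, 1189 bp apart, averaged 77.8% and 72.4% with low fat/low sucrose feeding, against 66.0% and 59.2% with high fat/high sucrose, with listed differences of -15.0 and -12.0 points (q = 0.000301 and 0.000363) in the authors' deposited table. These 3 sites, between -32546 and -23303 bp, were lower in the same diet. At 106562222, 63303 bp upstream, methylation averaged 87.7% and 95.6%, with 8.08 points listed (q = 0.00708) in the authors' deposited table. At 106473716, 151809 bp upstream, it averaged 68.4% and 42.3%, with -18.7 points listed (q = 0.00260) in the authors' deposited table. At this last site the difference of the averages, -26.1 points, was larger than the listed difference, the widest gap between the 2 measures among the 26 sites (7.42 points). Whether sites this far from a start act on Cdh5 was not tested.

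Pecam1 encodes CD31, an adhesion molecule of endothelial cells, platelets and leukocytes. Its 2 sites lie on chromosome 11, 233 bp apart and with no gene feature, 9489 and 9722 bp upstream of the start. At 106586083 methylation averaged 82.3% with low fat/low sucrose feeding, against 99.2% with high fat/high sucrose, and the difference was listed at 15.2 points (q = 0.000106) in the authors' deposited table. At 106586316 it averaged 75.0% and 91.0%, with 17.4 points listed (q = 0.00171) in the authors' deposited table. Both sites were near full methylation under high fat/high sucrose. They form 1 cluster, so their shared direction is 1 observation.

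Vwf, the von Willebrand factor gene, was the only member with more than 2 sites that all rose with high fat/high sucrose. The 4 sites lie in introns on chromosome 6 over 58671 bp, in 3 clusters. Of all listed sites 57.6% were higher. In the level bins, 10 points wide, that hold the 4 Vwf sites by their mean of both averages, 67.7 to 82.1% of all listed sites were higher. The Vwf sites thus had the more frequent direction for their level. At 125488580, 5977 bp past the first listed start, methylation averaged 28.2% with low fat/low sucrose feeding, against 52.2% with high fat/high sucrose, and the difference was listed at 22.4 points (q = 3.89e-05) in the authors' deposited table. This was the largest rise of the 26 sites, and 2.89% of all listed sites had a larger absolute difference. At 125523064 the averages were 12.9% and 24.2%, with 13.1 points listed (q = 0.00181) in the authors' deposited table. The 2 other sites, at 125546906 and 125547251, lie 345 bp apart. They averaged 23.4% and 4.70% with low fat/low sucrose feeding, against 38.2% and 19.8% with high fat/high sucrose, with listed differences of 12.8 and 15.4 points in the authors' deposited table. The table counts distances at Vwf from 3 transcripts, so these last 2 sites are listed as 6662 and 6317 bp upstream of a shorter transcript although they lie 64303 and 64648 bp past the first Vwf start. All 4 sites had low methylation under low fat/low sucrose, a mean of 17.3%, and 33.6% under high fat/high sucrose, per the authors' deposited table.

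The stabilin genes, whose scavenger receptors clear hyaluronan and other waste molecules from blood in the sinusoids, had 1 site each, in opposite directions. The Stab2 site, in an intron on chromosome 10 at 86453466 and 17222 bp past the start, averaged 72.4% with low fat/low sucrose feeding, against 64.7% with high fat/high sucrose, and the difference was listed at -10.8 points (q = 0.00848), the largest q of the 26, in the authors' deposited table. The Stab1 site, on chromosome 14 at 31989953, averaged 91.5% and 97.3%, with 6.41 points listed (q = 0.00589) in the authors' deposited table. It was the smallest difference of the 26 and the only site in a CpG island. It carries an exon flag but lies 8127 bp upstream of the listed Stab1 start, so the exon is not one of the listed transcript.

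**Figure D2:**
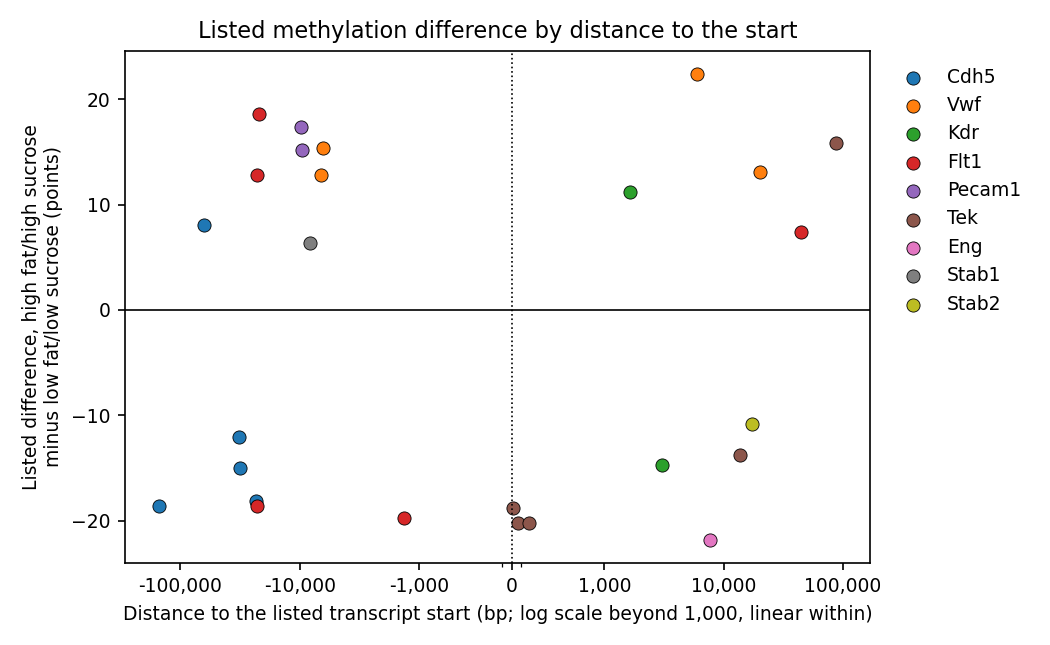
Listed difference in percentage points (vertical axis, high fat/high sucrose less low fat/low sucrose) against distance to the listed start in bp (horizontal axis, linear within 1000 bp and logarithmic beyond), 1 point per site, coloured by gene. The 3 sites within 1000 bp of a start are those of Tek, at -18.8 to -20.3 points. Upstream sites divide into 8 higher and 6 lower, 57.1% higher against 57.0% of all listed upstream sites. The Vwf sites at -6662 and -6317 bp count as upstream of a shorter transcript but lie past the first Vwf start.

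By position, 11 of the 26 sites lay in introns (42.3%, against 49.1% of all listed sites), 11 had no gene feature (42.3% against 34.4%), 3 lay in a promoter (11.5% against 17.5%) and 4 in an exon (15.4% against 13.3%). The 3 promoter sites, 1 cluster at Tek, also carry the exon flag and are counted in both shares. Islands and shores were thin, with 1 site in an island (3.85% against 7.12%) and 2 in shores (7.69% against 20.5%). Intronic sites were 7 higher and 4 lower (63.6% higher, against 55.6% of all listed intronic sites). Sites with no gene feature were 5 higher and 6 lower (45.5% higher, against 57.6% of all such sites). Upstream of the listed start 8 were higher and 6 lower (57.1% higher, against 57.0% of all listed upstream sites). From the start on 5 were higher and 7 lower (41.7%, against 58.0%). The upstream rises include the Vwf sites at 125546906 and 125547251. These are listed upstream of a shorter transcript but lie 64303 and 64648 bp past the first Vwf start. Both shares would change if distances ran from that start, and the other listed sites were not recounted in that way.

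The differences at the endothelial genes were large for the table. At 14 of the 26 sites (53.8%) the absolute listed difference was at least 15 points, 6 of them rises and 8 falls, against 25.7% of all listed sites. The median absolute difference was 15.3 points over the 26 sites and 11.7 over all listed sites in the authors' deposited table. With neighbouring sites joined, 8 of 20 clusters (40%) reached 15 points by their site of smallest p, against 27.0% of all clusters, a smaller excess. The limit of 15 points was chosen after the values were seen, and no test was run on these shares. The 3 Tek promoter sites, 2 Cdh5 sites, 2 Flt1 sites and the Eng site made up the 8 falls, and 2 sites each of Vwf and Pecam1 with 1 each of Flt1 and Tek the 6 rises.

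Direction was also set beside the level of methylation. Over all listed sites, those of low and middle level were mostly higher in high fat/high sucrose and those of high level mostly lower. Where the mean of both averages was 20 to under 50%, 81.1% of listed sites were higher, whereas of the 9 endothelial sites in this range 4 were higher. The 5 lower ones were the Flt1 sites at -1342 and -22799 bp, the Cdh5 site at -23303 bp and the Tek sites at +12 and +191 bp. Of listed sites at 80% or more, 35.7% were higher, whereas all 4 endothelial sites there were, namely both Pecam1 sites, the Cdh5 site at -63303 bp and the Stab1 site. In the other ranges the endothelial sites had the more frequent direction, with 3 of 3 higher under 20% (74.9% of all) and 2 of 10 higher at 50 to under 80% (37.4% of all). The high fat/high sucrose average was nearer to 50% than the low fat/low sucrose average at 15 of the 26 sites (57.7%), against 70.9% of all listed sites. The Tek sites at +12 and +191 bp share a cluster with the Tek site at +64 bp, whose mean of 54.1% puts it in the next range. Both Pecam1 sites also share a cluster, so these counts hold fewer separate observations than sites. The ranges were chosen after the values were seen, and the number of sites in each is small.

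**Figure D3:**
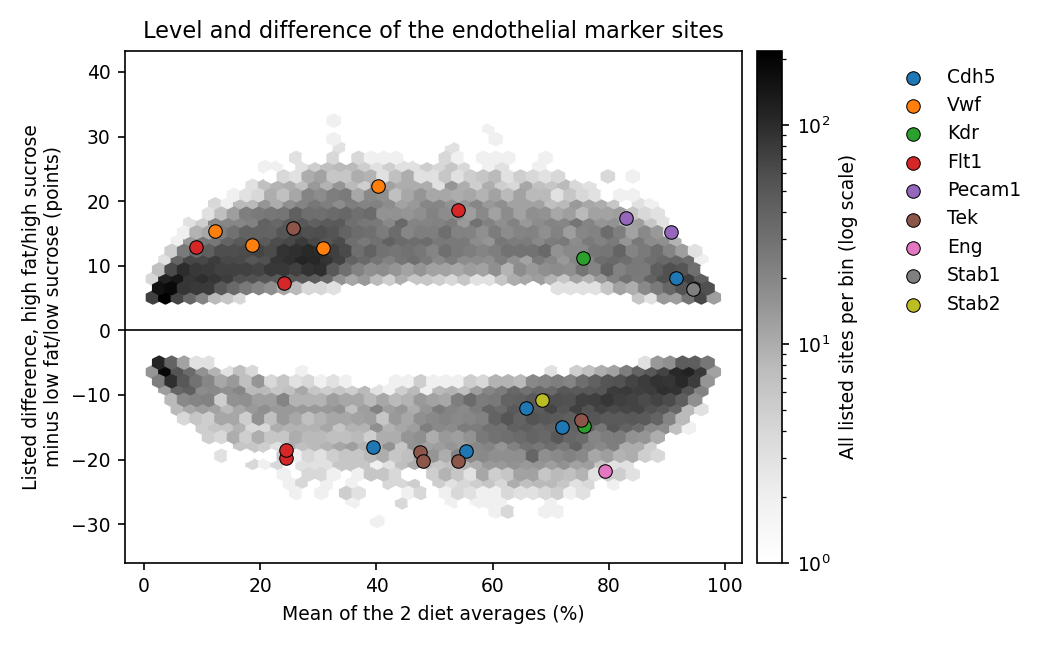
Listed difference in percentage points (vertical axis, high fat/high sucrose less low fat/low sucrose) against the mean of the 2 diet averages in percent (horizontal axis) for all 23904 listed sites (grey, number per bin on a log scale) and the 26 endothelial sites (coloured by gene). The gap around 0 is the authors' limit on the difference; the 2 lower Flt1 points, at low level, and the 2 Pecam1 points, at high level, lie away from the dense parts.

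Genes that act with the markers were counted from 6 further lists, which hold 75 genes. Of these genes 52 had 151 listed sites, 78 higher and 73 lower (51.7% higher, against 57.6% of all listed sites), with a median difference of 5.84 points against 7.41 over all listed sites. The lists of growth factor partners and of endothelial transcription factors had both directions in quantity, and 6 of only 7 sinusoidal sites were lower. Each site was assigned by the table to a near start, which does not place it inside that gene.

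Ligands and partners of the VEGF and angiopoietin receptors had 21 sites at 6 of 12 genes, 13 higher and 8 lower (61.9% higher, against 57.6% of all listed sites). All 6 sites of Flt4, the receptor for lymphatic growth factors, were higher, in 4 clusters. That of smallest p, in an exon on chromosome 11 at 49439549, averaged 42.6% with low fat/low sucrose feeding, against 57.7% with high fat/high sucrose (listed difference 16.1 points) in the authors' deposited table. Nrp2, a co-receptor of VEGF, had 5 of 10 higher, and its site of smallest p was listed at 9.83 points in the authors' deposited table. Both sites of Vegfa, the VEGF ligand of Kdr and Flt1, were lower, and the one of smaller p had -17.0 points at 105767 bp from the start in the authors' deposited table. Pgf, the placental growth factor gene, had 1 lower site, and Angpt1, the ligand of Tek, and Ptprb, a phosphatase of endothelial receptors, had 1 higher site each. Flt4 was therefore the one VEGF receptor gene whose sites all shared a direction.

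Genes of the pathway of endoglin had 34 sites at 12 of 12 genes, 19 higher and 15 lower (55.9% higher, against 57.6% of all listed sites). Sites of smallest p had listed differences of 17.3 points at Smad1, a signal carrier of BMP receptors, 17.6 at its partner Smad4 and -11.5 at the activin receptor gene Acvr2a in the authors' deposited table. The Acvr2a site lay 1389075 bp upstream. The target gene Id1 had 4 of 5 sites lower, its sites forming 4 clusters, and Id3 had 3 of 3 higher, in 1 cluster. The ligand genes Gdf2, which encodes BMP9, and Bmp10 had 1 higher and 3 lower between them, and Acvrl1, the receptor that endoglin serves, had 1 higher site.

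Transcription factor genes of the endothelium held 72 sites at 16 of 17 genes, 39 higher and 33 lower (54.2% higher, against 57.6% of all listed sites). Gata2 had 15 of 15 higher, in 5 clusters. Sites were mixed at the ETS factor genes Erg (4 of 11 higher) and Fli1 (4 of 9). They were all lower at Mef2c (4 of 4, in 3 clusters) and Lmo2 (3 of 3, in 3 clusters). They were all higher at Sox7 (3 of 3, in 1 cluster), Ets1 (2 of 2, in 2 clusters) and Hhex (2 of 2, in 2 clusters). Listed differences at the sites of smallest p were -13.6 points at Erg, -14.1 at Sox17 and -13.4 at Mef2c in the authors' deposited table. Without Gata2 this list held 24 rises among 57 sites. This count was not planned, and leaving out a gene whose sites all rose can only lower the share of rises. Genes whose sites were all lower were kept, so the count shows only how much Gata2 adds to the rises.

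The smaller lists had only 8, 9 and 7 sites, most of them lower, against 42.4% of all listed sites. Junction and surface genes had 8 sites at 7 of 14 genes, 3 higher and 5 lower (37.5% higher, against 57.6% of all listed sites). They included the rise of 28.9 points, from 12.8% to 37.9%, in an exon of the endothelial guidance receptor gene Robo4 in the authors' deposited table. Mcam (-7.86 points) and Cd34 (8.24 points) followed in the authors' deposited table. Coagulation and vasoactive genes had 9 sites at 6 of 9 genes, 3 higher and 6 lower (33.3% higher). All 3 sites of the endothelin gene Edn1, in 2 clusters, were lower, with -17.8 points at its site of smallest p in the authors' deposited table. Ace (8.76 points) and the endothelin receptor gene Ednrb (11.8 points) had 1 higher site each in the authors' deposited table. Sinusoidal genes had 7 sites at 5 of 11 genes, 1 higher and 6 lower (14.3% higher), a median of -13.6 points. The 2 sites of Oit3 form 1 cluster, as do the 2 of Dnase1l3. The mean level of this list lay between 50 and 80%, where 37.4% of all listed sites were higher. Listed differences in that list were -13.5 points at Oit3, -17.9 at Dnase1l3 and 7.60 at Clec4g, a sinusoidal lectin gene, in the authors' deposited table. Some genes of this list, such as Fcgr2b, are also expressed by macrophages.

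**Figure D4:**
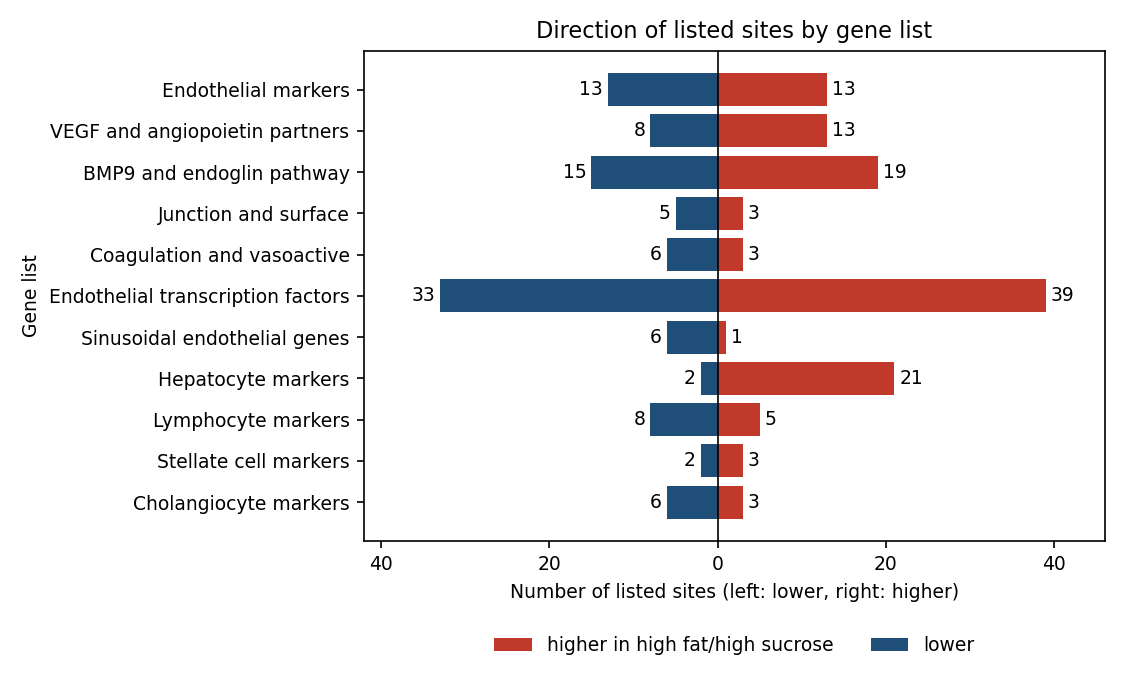
Number of listed sites (horizontal axis) higher (right, red) and lower (left, blue) in high fat/high sucrose for the endothelial markers, 6 lists of vascular genes and 4 lists of markers of other liver cells (vertical axis). The endothelial markers have 13 on each side, the sinusoidal list 1 higher and 6 lower, and the hepatocyte markers 21 higher and 2 lower. Of all listed sites 57.6% were higher, and the lists were not matched by methylation level.

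Markers of other liver cell types were counted in the same way. Hepatocyte markers had 23 sites at 8 of 12 genes, 21 higher and 2 lower (91.3% higher, against 57.6% of all listed sites). They included 5 of 5 higher at Apoa1 and 5 of 5 at Arg1, the latter in 1 cluster. Lymphocyte markers had 5 higher and 8 lower at 4 of 9 genes (38.5% higher). Cholangiocyte markers had 3 and 6 at 5 of 6 genes (33.3%), and stellate cell markers 3 and 2 at 5 of 8 genes (60%). None of 8 macrophage markers had a row in the table used here. The mean of the averages was 53.9% with low fat/low sucrose feeding, against 52.3% with high fat/high sucrose over the 26 endothelial sites, and 25.4% and 35.5% over the hepatocyte sites, in the authors' deposited table. Of all listed sites with a mean of both averages of 20 to under 50%, 81.1% were higher. The lists were not matched by level. The part of cell composition in the endothelial values was not tested.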

How the data were processed

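Liver DNA of 13 mice was captured with an Agilent methylation enrichment kit and sequenced after bisulfite conversion, per the labels' protocols, which name an exon probe design. CASAVA 1.8, Trim Galore, methylKit, Bismark and build mm9 are named, without settings, per the submitters' processing notes. Per the file headers, the authors' table gives a p-value and a q-value, a signed difference in points (handled as a score), the percent methylation averaged over each diet and distance and feature flags. Which test and weighting were used is not given in the sources used here. Depth per site is unknown, no replicate spread enters, and no test was run beyond the authors' own.

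Sites were taken by exact symbol. For the other lists, a symbol that is not current was replaced through its transcript or a synonym on the same chromosome in the RefSeq table for GRCm38.p6. Shares higher in high fat/high sucrose were set beside all listed sites, and sites within 1000 bp were joined for a count of clusters. The joining and counting were tested on simulated data. All values per site were computed or copied with Python 3.11.15 and pandas 2.3.3. Members, lists and ranges were chosen with earlier results of these data known. Named sites of the other lists were the 3 of smallest p in each, 1 per gene. Alternatives were stricter limits on difference, q, distance and feature, joining of sites, matching by synonym and the difference of averages.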

Additional observations from a re-analysis of the deposited data

How the results depend on the processing

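By the difference of the averages all 26 endothelial sites had the same sign, at 0.712 to 1.40 times the listed difference. Sites higher in high fat/high sucrose numbered 13 of 26 (50%, against 57.6% of all listed sites), and 13 of 26 when matched by synonym or transcript as well. Higher sites were 10 of 20 with sites within 1000 bp joined (50% against 55.6%) and 10 of 23 at 10 points or more (43.5% against 57.8%). They numbered 3 of 9 at q under 0.001 (33.3%, against 59.8% of all listed sites under that limit), 7 of 13 within 10000 bp of a listed start (53.8% against 59.9%) and 0 of 3 with the promoter flag (against 65.2%). The sites within 10000 bp include those of Vwf listed upstream of a shorter transcript. Stricter limits keep fewer sites, and the cause of the change in share was not tested. The 3 promoter sites are all of Tek. For the 6 vascular lists, 78 of 151 sites were higher, and 51 of 98 at 10 points or more (52.0% against 57.8% of all), 23 of 36 at q under 0.001 (63.9% against 59.8%), 42 of 69 within 10000 bp (60.9% against 59.9%) and 7 of 12 with the promoter flag (58.3% against 65.2%). The share of these lists, below that of all listed sites with every site counted, was thus above it at q under 0.001 and within 10000 bp; the cause was not tested. Sites at 15 points or more numbered 14 of 26, 13 by the difference of the averages and 8 of 20 with sites joined, alternatives chosen after the data were seen. Leaving out mice and the title prefix as a covariate were not run, since they need values per mouse. No paired analysis was possible because the table holds 1 average per diet. Depth limits every average by an unknown amount.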

Other observations

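Other listed sites near the endothelial genes were looked for after the values were seen, within 60000 bp of the outer sites of each gene and between them. There were 21, 10 higher and 11 lower, whereas 57.6% of all listed sites were higher. They lay near Vwf (4), Pecam1 (10), Eng (4) and Stab1 (3), with 0 near Cdh5, Kdr, Flt1, Tek and Stab2. Close neighbours among them were not joined. On the upstream side of Pecam1, whose own sites were higher, all 4 sites of Milr1, an inhibitory receptor gene of mast cells, were lower, from -7.05 to -15.4 points in the authors' deposited table. The Milr1 sites averaged 83.6 to 87.7% with low fat/low sucrose feeding, against 72.1 to 78.8% with high fat/high sucrose, levels at which most listed sites were lower. Of the 6 sites of Polg2, a gene on the same side, 5 were higher, up to 16.6 points, and 1 was lower in the authors' deposited table. The 10 sites near Pecam1 were thus evenly split. The higher Polg2 sites all lie between 106638476 and 106638819, and most Milr1 sites between 106612442 and 106612614, so they are few separate observations. At 106612614, 34 bp past the Milr1 start and 26298 bp from the nearest Pecam1 site, methylation averaged 87.7% with low fat/low sucrose feeding, against 78.8% with high fat/high sucrose, per the authors' deposited table.

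On the side of Vwf toward Cd9, a tetraspanin gene, 2 intronic sites with no gene symbol, at 125431166 and 125431186 on chromosome 6, had listed differences of -23.3 and -31.6 points in the authors' deposited table. The second averaged 77.5% with low fat/low sucrose feeding, against 40.7% with high fat/high sucrose, a larger difference than at any of the 26 endothelial sites in the authors' deposited table. They lie 57414 and 57394 bp from the nearest Vwf site and had the opposite direction to it. Near Eng, whose site was lower, an exon site of Fpgs, a folate enzyme gene, at 32537718 on chromosome 2 was also lower, from 61.9% to 35.2% (-21.7 points) in the authors' deposited table, 27950 bp away. The site of St6galnac6 was lower too (-17.6 points), whereas the other Fpgs site (6.37 points) and the Cdk9 site (12.3 points) were higher in the authors' deposited table.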
